A study of Saccharomyces cerevisiae with 27 samples.

Results

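Chromatin within 20 kb of the ends of the 16 nuclear chromosomes of Saccharomyces cerevisiae was read in windows of 50 bp. A window was a member when its midpoint lay within 20 kb of the first or last base of a chromosome, so the members were chosen by position alone and not by any measured value. They numbered 12807 of 241434 windows, with 400 or 401 at each of 32 ends. Each end is named by its chromosome and side, and windows more than 50 kb from both ends, 209427 in all, are called the interior and serve as the reference.

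Chromatin immunoprecipitation followed by sequencing (ChIP-seq) was used for histone H3 trimethylated at lysine 79 (H3K79me3) and at lysine 4 (H3K4me3) in the laboratory strain BY4741 and in an arp5 deletion strain, and for the protein Arp5 itself in the strain CY1838. Strains for the histone marks were crosslinked with formaldehyde and sonicated. The CY1838 cells had been synchronised with nocodazole, released into alpha-factor and cut with micrococcal nuclease. CY1838 was harvested at an optical density of 0.6, and the cultures for the marks and RNA at 0.8 to 1. The Arp5 map and the mark maps thus differ in strain, cell cycle stage, shearing and culture density. RNA was sequenced in BY4741, in strains derived from it that lack SIR3, ARP5, IES6, IES2 or both SIR3 and ARP5, and in CY337 and its ino80 deletion strain, all grown in rich medium (YPD), and was deposited as 1 FPKM column for each genotype. Each ChIP group held 1 library, and the labels give 3 RNA libraries for BY4741, sir3, arp5 and ies6, 2 for ies2, CY337 and ino80 and 1 for the double deletion, with no values per library used here, so no value below has a replicate error and none was tested.

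Silent chromatin at budding yeast chromosome ends is built by the Sir2, Sir3 and Sir4 proteins, which spread inwards from the telomere repeats. Sir3 binds the unmethylated H3K79 region, and H3K79me3, made by Dot1, marks most of the active genome, while H3K4me3, made by Set1, marks the starts of transcribed genes. Ends carry the X element and, at some, the longer Y' element, a repeat that encodes the YRF1 helicases; Arp5 is a subunit of INO80, a remodeller that slides nucleosomes.

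The ARP5 gene checked the strain labels. Its windows had a median H3K79me3 log2 ratio of 1.06 in BY4741 and were at exactly 0 in both arp5 tables, the authors' deposited table of the H3K79me3 log2 ratio between the strains stood at -8.42 there, and its RNA was 35.02 FPKM in BY4741 and 0 in arp5; a genotype field that calls the arp5 ChIP libraries wild type was therefore not followed. Values of the marks are log2 ratios of precipitate over input, and the arp5 H3K79me3 table spans a narrower range than the BY4741 table, with a standard deviation over all windows of 0.85 against 1.24.

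In BY4741 both marks were depleted along the ends. The median H3K79me3 log2 ratio was -1.23 within 20 kb and 0.11 in the interior, a difference of -1.34, and the quartiles of the member windows were -1.99 and -0.04. H3K4me3 stood at -2.70 within 20 kb and at -0.89 in the interior, a difference of -1.81. The H3K79me3 median lay under the interior median at 32 of 32 ends and the H3K4me3 median at 31 of 32, with XVI right the exception at -0.74. Of 516 interior stretches of 20 kb, 5% had an H3K79me3 median below -0.80, and 25 of the 32 ends did. The lowest of those stretches stood at -1.63, and 5 ends were lower.

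The depletion was not even with distance. H3K79me3 had a median of -2.49 in the first 0.5 kb and -1.34 from 0.5 to 1 kb. It then stood at 0.33 from 1 to 2.5 kb and at -0.27 from 2.5 to 5 kb, above its level on either side. From 5 to 7.5 kb it was -1.56 and from 7.5 to 10 kb -1.61, and from there it climbed to -0.997 between 15 and 20 kb. Just outside the members the values went on in the same direction, with -0.47 from 20 to 30 kb and 0.02 from 30 to 50 kb. H3K4me3 was lowest at the very end, -4.58 in the first 0.5 kb, reached -1.53 from 2.5 to 5 kb, and was -2.51 from 15 to 20 kb.

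**Figure D1:**
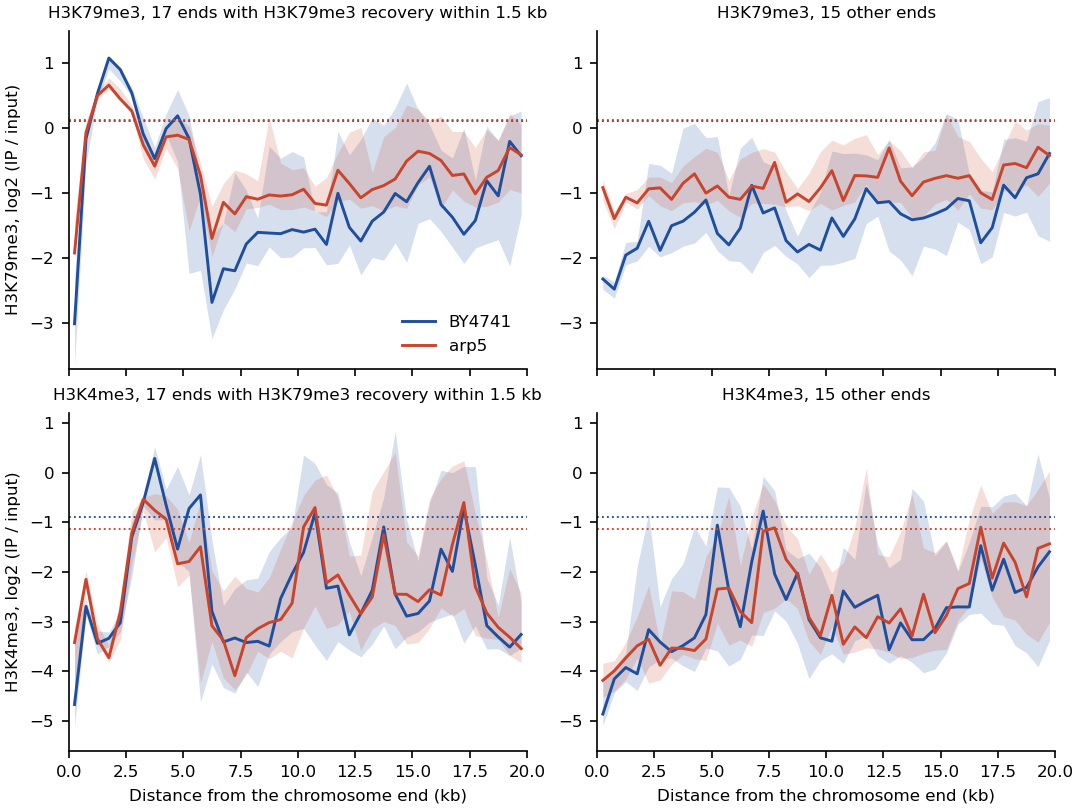
Median log2 ratio of precipitate over input in 500 bp bins (y axis) against distance from the chromosome end in kb (x axis), for H3K79me3 (upper panels) and H3K4me3 (lower panels) in BY4741 (blue) and arp5 (red); lines are medians over ends, shading the middle 50% of ends, and dotted lines the interior median of each table. The 17 ends on the left carry a rise of H3K79me3 between 1 and 2.5 kb that the other 15 ends lack, and H3K4me3 is low there.

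Recovery was taken as the first point, going inwards, where the median over 1 kb reached the interior median of the same table. For H3K79me3 in BY4741 its median over ends was 1.15 kb, but the ends fell on both sides of a gap. At 17 ends it lay between 0.52 and 1.17 kb, and at the other 15 between 2.72 and 20.8 kb, with a median of 8.81 kb. These sets are called early and late ends; they were divided at 1.5 kb after the distances were seen, so differences in H3K79me3 between them are a description. The 4 earliest were VI left at 0.52 kb, V left at 0.67 kb, IV right at 0.76 kb and II left at 0.77 kb. The 4 latest were IX right at 20.8 kb, X right at 17.8 kb, III left at 17.7 kb and XI right at 13.2 kb.

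Ends with an annotated YRF1 gene were all early. The 8 YRF1 genes of the table, which code for the Y' helicases, lay at 7 ends (IV right, V right, VII right, XII right, XIV left, XV right and XVI left), and 7 of 7 were early. The other 10 early ends have no gene of that name in the table, which does not show that they lack a Y' element. Their recovery points fell in genes without the name, such as YBL113C at II left, YEL077C at V left and YIL177C at IX left. The Y' content of these ends was not tested. From 1 to 2.5 kb H3K79me3 was 0.80 at the early ends, with end medians from 0.66 to 1.02, against -1.77 at the late ends, whose medians ran from -1.97 to -1.06. There 83.3% of early-end windows were on the authors' list of significant H3K79me3 windows and 0% on their H3K4me3 and Arp5 lists. H3K4me3 stood at -3.28 in the same stretch and reached its interior level at a median of 2.97 kb. Over all ends its nearest recovery was 1.66 kb, past the 1.5 kb limit that defines the early ends. That H3K79me3 came first at 17 of 17 early ends was therefore fixed by the division. The count of 3 of 15 late ends was shaped by the division too. Over all ends, with no division, H3K79me3 came first at 20 of 32. Copies of Y' are nearly identical, and the placing of reads with several matches was not given in the sources used here, which means that the 17 profiles may share reads and are not 17 separate measurements.

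**Figure D2:**
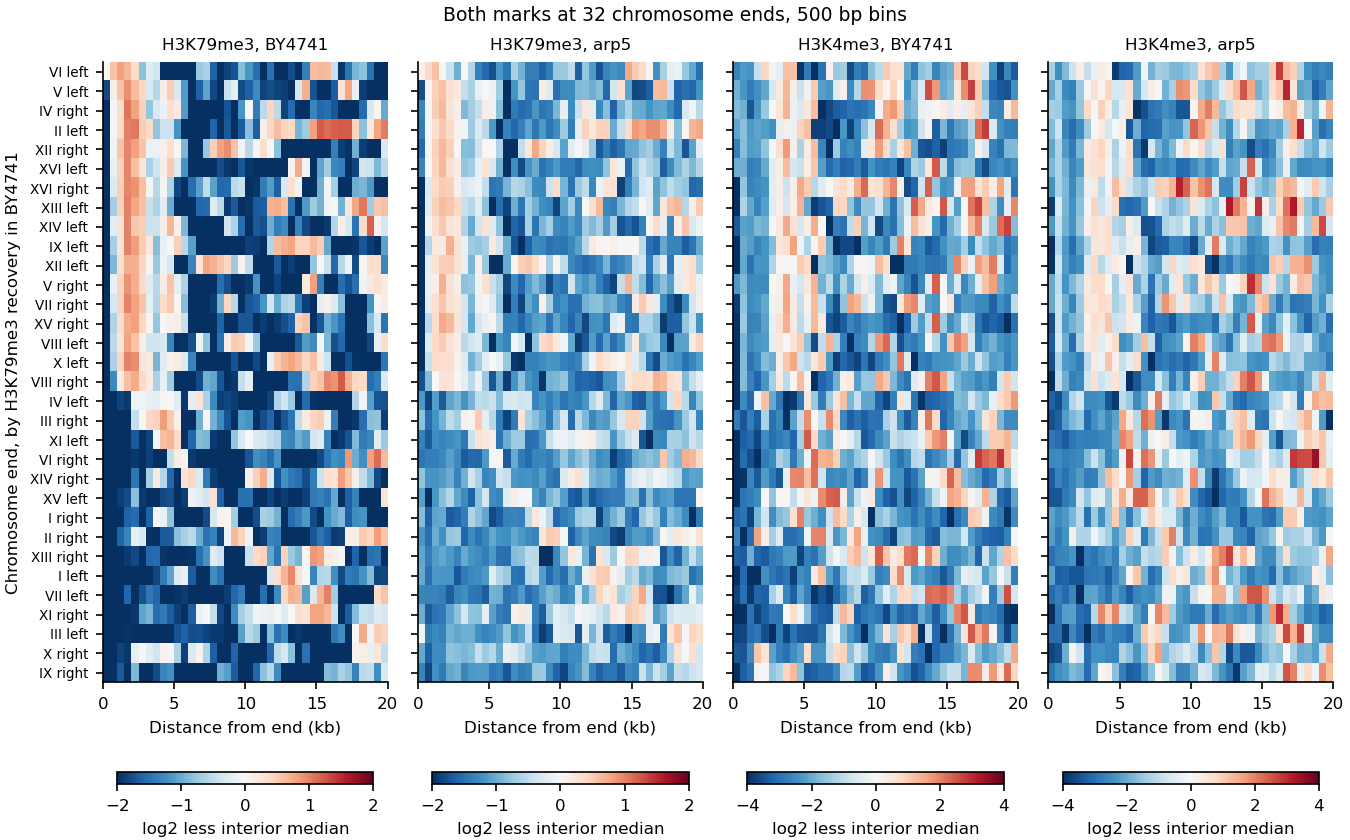
Log2 ratio less the interior median of its table, in 500 bp bins from 0 to 20 kb (x axis), for 32 chromosome ends ordered by H3K79me3 recovery in BY4741 (y axis); red is above and blue below the interior median, and the color scale is wider for H3K4me3. Early ends share a red H3K79me3 band near 1 to 2.5 kb in both strains, and isolated red blocks lie farther in at many ends.

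Farther in than that band, from 5 to 7.5 kb, H3K79me3 was -1.72 at the early ends and -1.46 at the late ends. Searched from 7 kb inwards, a start chosen after the profiles were seen, H3K79me3 recovered at a median of 13.1 kb at the early ends and 13.2 kb at the late ends, and over all ends at 13.2 kb with a range of 7.02 to 27.3 kb. H3K4me3 searched in the same way recovered at 8.99 kb, with a lower quartile over ends of 7.04 kb, close to the start of the search. Windows nearer the end than 7 kb were left out of this search. Its running median close to 7 kb therefore covered less than 1 kb. At II left 49.0% of member windows were at or above the interior H3K79me3 median, the highest share, and its median was 0.03. At IX right 0% were, with a median of -1.65.

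The first recovered window of H3K79me3 fell within an annotated gene at the late ends other than III right and I right. At III left it was VAC17, which links the vacuole to the myosin motor for inheritance by the bud, and at IX right MGA2, a membrane-bound transcription factor. At X right it was AAD10, a putative aryl-alcohol dehydrogenase, and at XI right NFT1, a putative ABC transporter. At VII left it was MNT2, a mannosyltransferase, and at VI right IRC7, a beta-lyase. Among ends named for their change in arp5, it was MAL31, the maltose permease, at II right and AIF1, a mitochondrial cell death effector, at XIV right. At III right the nearest gene was AAD3, at a gap of 64.5 bp.

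H3K4me3 in BY4741 recovered at a median of 3.12 kb, from 1.66 kb at II right to 11.4 kb at VII left. The nearest recoveries were at II right, X right at 1.68 kb and IV left at 1.77 kb. At these ends a COS gene begins or ends within 2 kb of the telomere: COS2, COS5 and COS7, members of a family of membrane proteins that act in sorting cargo to the vacuole.

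Listed Arp5 windows made up a smaller share near the ends than in the genome. Of the member windows 28.9% were on the authors' list of significant Arp5 windows, against 35.1% of all windows, and 23 of 32 ends had a share under 35.1%. Of the 516 interior stretches the middle 90% held between 13.8% and 59.8%, and 3 ends lay below that range and 0 above it. The share was 2.5% from 1 to 2.5 kb, 17.6% from 2.5 to 5 kb and 36.5% from 15 to 20 kb. It ran from 9.25% at III left to 56.2% at V left. The H3K79me3 list held 12.5% of member windows against 34.3% of all windows, and the H3K4me3 list 7.93% against 28%; these shares were below the genome's at 31 and 32 of 32 ends. Only listed windows carry an Arp5 value, and the lowest listed log2 ratio was 0.12, so unlisted windows have no level.

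In arp5 both marks were still depleted along the ends. H3K79me3 stood at -0.78 within 20 kb and 0.13 in the interior, a difference of -0.91, and H3K4me3 at -2.59 and -1.13, a difference of -1.46. Both marks were under the interior median at 32 of 32 ends. The arp5 minus BY4741 difference of H3K79me3, less its interior median, was 0.33 within 20 kb, and the authors' deposited table, centred in the same way, gave 0.33. At III right they differed in sign, with 0.40 for the centred difference and -0.40 in the deposited table before centring. The H3K79me3 median of arp5 was above that of BY4741 at 28 of 32 ends.

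The positive H3K79me3 difference went with the level of the windows. In the interior the lower quartile of H3K79me3 was -1.04 in BY4741 and -0.67 in arp5, while the medians were 0.11 and 0.13. When each member window was set against the interior windows closest to it in BY4741 level, in 100 classes, the difference within 20 kb was -0.05 for H3K79me3 and -0.11 for H3K4me3. This quantity is called the level-matched change. Its sign depended on the matching: for H3K4me3 it was 0.056 with classes by the mean of both strains and 0.081 with no classes, and for H3K79me3 it was -0.02 and 0.33.

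Counts of windows past 2-fold showed the same dependence. H3K79me3 was higher in arp5 past 2-fold, after centring on the interior, in 15.9% of member windows against 6.87% of all windows, and lower in 0.609% against 0.478%. With level matching it was higher in 0.523% against 0.198% and lower in 0.539% against 0.379%. H3K4me3 was higher after centring in 15.8% against 7.84% and lower in 12.3% against 8.42%. With level matching, H3K4me3 was higher in 8.84% against 5.86% and lower in 13.8% against 7.47%, so windows past 2-fold were more frequent than in the genome in both directions. In the authors' deposited table, centred, 14.5% of member windows were higher against 6.36% of all windows, and 1.15% lower against 0.664%.

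The outermost 0.5 kb stood apart in H3K79me3. Its median was -2.49 in BY4741 and -1.12 in arp5, the authors' deposited table gave 1.32, and the level-matched change was 0.18. At the late ends the values were -2.37 and -0.94 with a level-matched change of 0.53, and at the early ends -2.96 and -1.70 with -0.01. Over the first 1 kb the arp5 median was above that of BY4741 at 31 of 32 ends; VI left was the exception, at 0.49 in BY4741 and 0.37 in arp5. H3K4me3 in the outermost 0.5 kb was -4.58 and -4.09, with a level-matched change of -0.30. The read depth behind these windows is unknown. In the near-end band of the early ends, from 1 to 2.5 kb, H3K79me3 was 0.80 in BY4741 and 0.54 in arp5, with a level-matched change of -0.02.

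By end, the level-matched change of H3K79me3 ran from -0.16 at IX left to 0.10 at III left and was below 0 at 26 of 32. The next lowest ends were VII right at -0.14, XIV right at -0.13 and II right at -0.11, and the next highest were VII left at 0.05, XI right at 0.02 and VI right at 0.02. The middle 90% of interior stretches lay between -0.08 and 0.09, and 8 ends fell below that range and 1 above it. For H3K4me3 the ends ran from -0.35 at XII left to 0.24 at III left, with 14 below and 2 above the interior range of -0.17 to 0.18. III left had the highest value in both marks. Its centred H3K79me3 difference before matching was 0.64, but the authors' deposited table gave 0.32 there, beside 0.67 and 0.74 at VII left. Single 20 kb stretches of the interior reached -0.19 and 0.24 in H3K79me3, so 0 of 32 ends lay below the lowest of them. In H3K4me3 the lowest stood at -0.29, and 2 ends, XII left and XIII right at -0.34, lay below it.

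**Figure D3:**
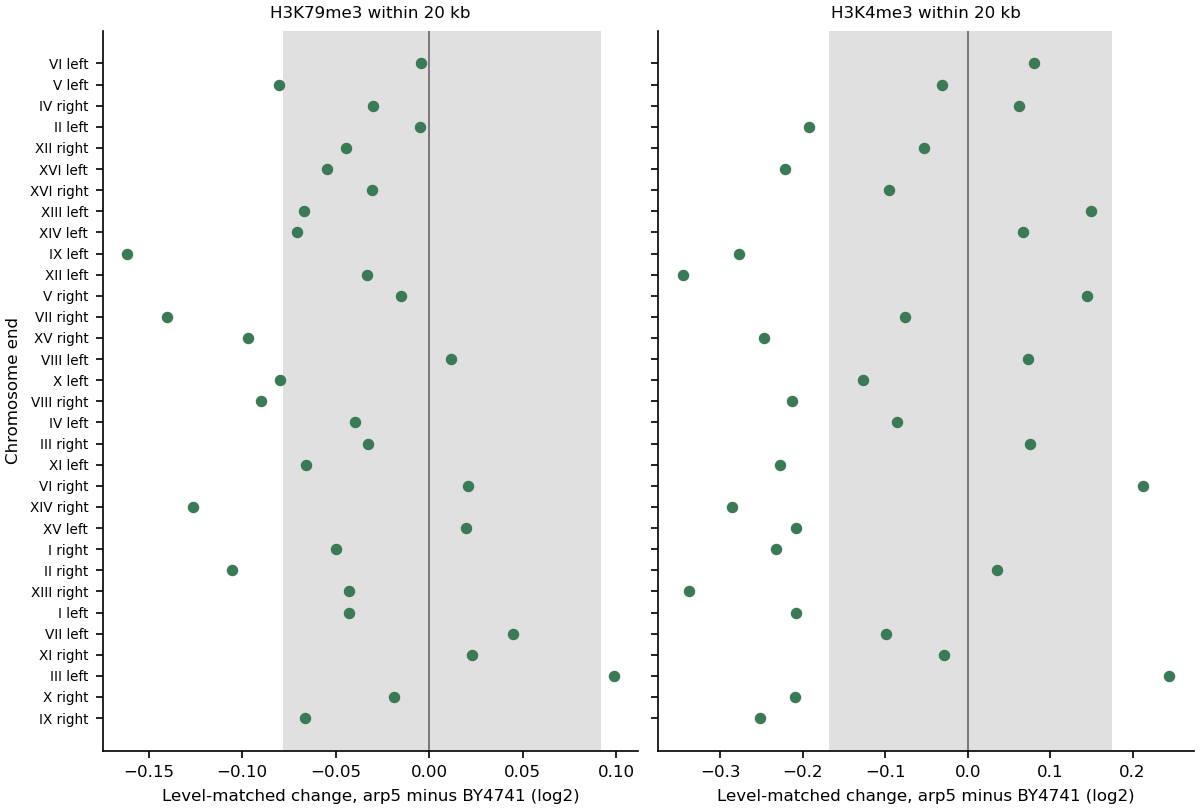
Level-matched arp5 minus BY4741 change in log2 units (x axis), median over the windows within 20 kb, for each chromosome end (points, y axis, ordered by H3K79me3 recovery in BY4741); grey bands hold the middle 90% of 516 interior stretches of 20 kb. In H3K79me3 8 points lie left of the band and 1, III left, right of it; in H3K4me3 14 lie left and 2 right.

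Recovery distances of H3K79me3 were alike in the 2 strains at most ends. They lay within 250 bp of each other at 24 of 32, among them 17 of 17 early ends, and in arp5 they were farther from the end at 6 and nearer at 2. These counts treat the limit unevenly. I right, from 7.94 to 8.19 kb, lay at the 250 bp limit and was counted as farther. II right, from 8.81 to 8.56 kb, lay at the same limit and was counted as within it. The median over ends was 1.23 kb in arp5 against 1.15 kb in BY4741, and from 7 kb inwards 12.4 kb against 13.2 kb. The largest move was at IV left, from 2.72 to 23.0 kb, an end singled out after its value was seen. It was 22.9 kb in BY4741 with a 2 kb median, so the near point in BY4741 rested on a short block at COS7. VI right went from 5.09 to 17.04 kb, but a 500 bp median gave 5.09 and 5.28 kb, and a 2 kb median 17.8 and 17.7 kb. XIV right went from 5.61 to 10.5 kb and kept a move in that direction under 5 of 6 other settings. Among these, leaving out windows of exactly 0 gave the same distances, and the lower quartile as threshold gave 3.06 and 3.46 kb. From 7 kb inwards XIV right gave 10.3 and 10.5 kb. XI right moved nearer the end, from 13.2 to 6.74 kb, and turned the other way with a 2 kb median, at 12.9 and 13.6 kb.

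H3K4me3 recovery lay within 250 bp at 19 of 32 ends, nearer the end in arp5 at 8 and farther at 5. The 3 largest moves away from the end were at the ends whose outermost gene is COS2, COS7 or COS5: II right from 1.66 to 8.21 kb, IV left from 1.77 to 7.22 kb and X right from 1.68 to 7.12 kb. With a 500 bp median those ends gave 1.66, 1.82 and 1.73 kb in arp5, so a short stretch at the COS genes still reached the interior level. The largest move towards the end was at III left, from 10.5 to 6.57 kb, and it was present with both 500 bp and 2 kb medians. With the threshold at the interior lower quartile, III left gave 6.57 kb in BY4741 and 6.32 kb in arp5. When the next 2 kb also had to reach the threshold, it gave 10.5 and 10.4 kb.

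**Figure D4:**
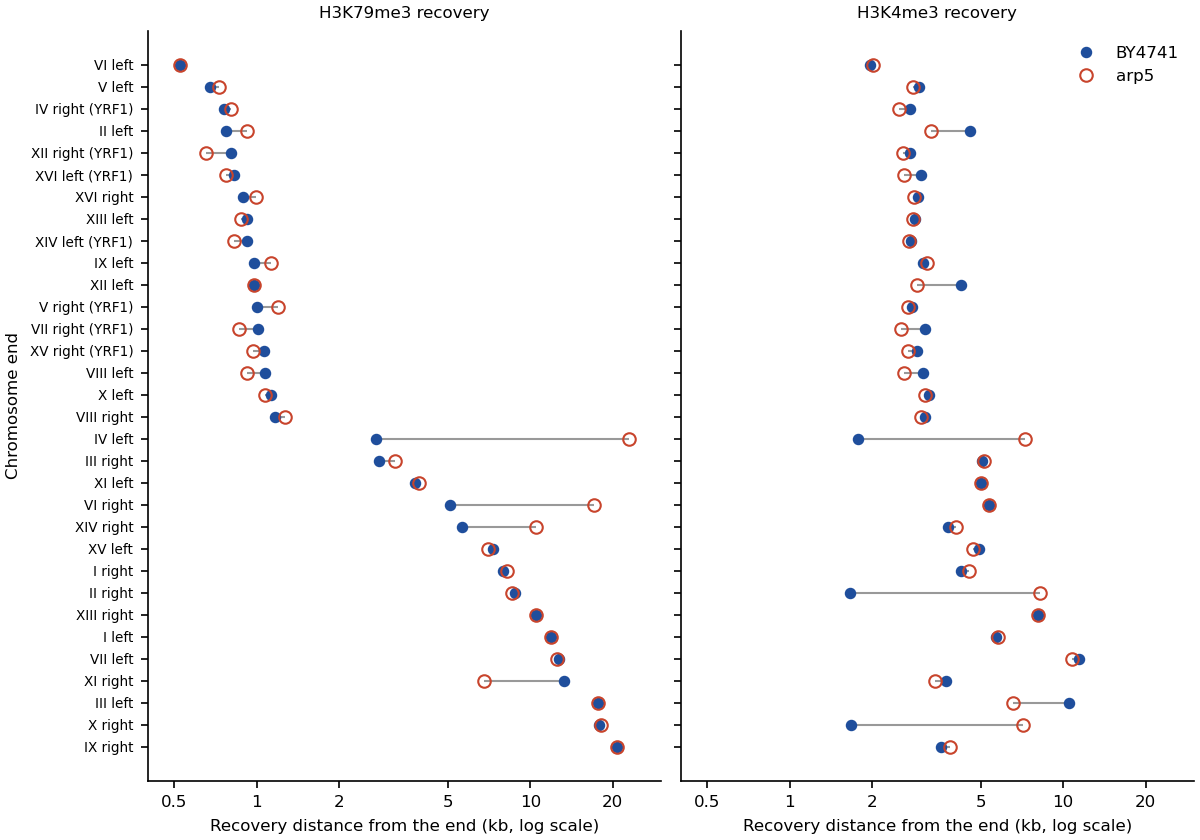
Distance in kb from the chromosome end (x axis, log scale) at which the 1 kb running median first reached the interior median of its table, in BY4741 (filled blue) and arp5 (open red), for H3K79me3 (left) and H3K4me3 (right); ends with a YRF1 gene are marked. The 17 upper ends recover H3K79me3 by 1.27 kb in both strains, and the long lines at IV left, VI right and XIV right are moves away from the end in arp5.

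Genes wholly within 20 kb numbered 232, of which 171 had at least 10 windows. Of these 171, H3K79me3 over the gene body had a level-matched change past 0.5 log2 downwards in 11 and upwards in 2, against 1.01% and 1.86% of all 5174 such genes. For H3K4me3 34 were lower and 33 higher, against 9.39% and 8% of all genes. Over the 171 the median level-matched change was -0.05 in H3K79me3 and -0.03 in H3K4me3, beside 0.02 and -0.04 over all genes. The 11 lower genes in H3K79me3 included 6 COS genes and both acid phosphatase genes; the others were AIF1, DFP4 and FEX1, a fluoride exporter.

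Most COS genes had negative level-matched changes in both marks. Of 11 within 20 kb, 10 were below 0 in H3K79me3, where 2224 of all 5174 genes were, with a median of -0.50 and 6 past 0.5 log2. In H3K4me3 11 of 11 were below 0, where 2837 of all genes were, with a median of -1.12 and 9 past 0.5 log2. The H3K79me3 level itself, before matching, was higher in arp5 at COS8 and COS12. COS7 (chrIV:1802-2953, sacCer3) had an H3K79me3 level of -0.04 in BY4741 and -0.97 in arp5, and an H3K4me3 level of -0.03 and -2.95. COS5 (chrX:742848-743999) had H3K79me3 levels of -0.004 and -0.72 and H3K4me3 levels of -0.57 and -2.33. Their level-matched changes were -0.81 in H3K79me3 for both genes and -1.49 in H3K4me3 for both, the lowest H3K79me3 values of the 171 genes. COS2, COS3, COS1 and COS10 lay between -0.63 and -0.50 in H3K79me3. COS8 was the exception at 0.06, and COS6 had the H3K4me3 change closest to 0, at -0.05. The 3 COS genes nearest an end, within 2 kb of it, had the 3 lowest H3K79me3 changes of the family. COS genes resemble each other closely, so reads may have been shared among them.

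Their FPKM values lay below BY4741 in arp5 and, but for COS10, above it in sir3. COS7 stood at 57.6 FPKM in BY4741, 23.2 in arp5, 20.2 in ies6, 31.2 in ies2 and 109.8 in sir3, and at 35.8 in CY337 and 14.0 in ino80. COS5 stood at 56.2 FPKM in BY4741, 22.5 in arp5 and 110.7 in sir3. Of the 11 genes 11 were below BY4741 in arp5 and 10 above it in sir3, with median log2 ratios of -0.84 and 0.92, beside -0.015 and -0.0017 over interior genes. Past 2-fold were 5 of 11 in arp5, lower, against 4% of all genes, and 2 of 11 in sir3, higher, against 1.96%. In the sir3 arp5 double deletion, for which the labels give 1 library, COS7 stood at 43.3 FPKM and COS5 at 40.5, between the values of the single deletions.

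PHO11 and PHO12, which code for secreted acid phosphatases, behaved alike in the marks. PHO11 (chrI:225460-226863) had an H3K79me3 level of -0.09 in BY4741 and -0.70 in arp5 and an H3K4me3 level of -1.39 and -2.60. PHO12 (chrVIII:552099-553502) had -0.46 and -0.78 in H3K79me3 and -1.86 and -3.06 in H3K4me3. PHO11 RNA was 138.1 FPKM in BY4741, 19.3 in arp5, 6.94 in ies6 and 117.2 in sir3; PHO12 RNA was 163.7, 22.0, 8.07 and 125.6. Their near-identical sequences mean that the values of one may come in part from the other.

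AIF1 (chrXIV:777602-778738), the third lowest in H3K79me3, went from 0.48 in BY4741 to -0.34 in arp5, and its RNA was 25.6 and 21.4 FPKM. DFP4 on VIII left had a level-matched change of -0.57, and 100% of its windows were on the Arp5 list. Of the other genes among the 10 lowest, only COS10 had listed windows, at 21.7%. Among the 10 highest, IRC4 and DIA1 had 100% on that list, ARR1 83.3%, SEO1 17.1% and AAD14 8.70%, and the rest 0%. The median share per gene was 2.38% over the 171 genes and 15.4% over all genes of at least 10 windows. The difference between the lowest and highest genes was not tested. The gene with the highest H3K79me3 change was CHA1 (chrIII:15798-16880), a serine and threonine deaminase, from -1.22 to -0.04, with a level-matched change of 0.72 and RNA of 422.0 and 268.2 FPKM. IRC4 followed at 0.59, VEL1 at 0.47 and YCL068C at 0.43. DIA1 (chrXIII:904825-905835) was at 0.42 in H3K79me3, while its H3K4me3 level was 0.08 in BY4741 and -2.39 in arp5 and its RNA 137.4 and 21.3 FPKM. ARR1, an activator of arsenic resistance genes, MAL11, an alpha-glucoside transporter, and AAD14, a putative aryl-alcohol dehydrogenase, lay at 0.42, 0.42 and 0.35. SEO1, a putative permease, was at 0.34, from -1.43 to -0.58.

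Of the 171 genes, the lowest in H3K4me3 beside COS5, COS7 and PHO11 were MAL32 at -1.65, FET4 at -1.64 and MAL12 at -1.29. MAL32 and MAL12 code for maltases and FET4 for a low-affinity iron transporter. MAL32 and MAL12 are close copies and both had RNA under 3 FPKM in BY4741 and arp5. FET4 had an H3K4me3 level of 0.31 in BY4741 and -1.02 in arp5, and RNA of 46.6 and 31.1 FPKM. The highest beside the silent cassette were YER186C at 1.82, GEX2 at 1.82, YML131W at 1.33, GEX1 at 1.32 and PDR18 at 1.21. GEX1 and GEX2 code for glutathione exchangers and PDR18 for an ABC transporter. GEX2 RNA was 5.35 FPKM in BY4741 and 14.3 in arp5, and GEX1 RNA 1.67 and 4.95.

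III left carries the silent mating cassette HML, which is kept off by the Sir proteins. HMLALPHA1 (chrIII:13282-13809) had an H3K4me3 level of -4.08 in BY4741 and -0.92 in arp5, a level-matched change of 2.47, the highest of the 171 genes. Its H3K79me3 level was -1.67 and -1.32, with a level-matched change of -0.21. HMLALPHA2 had H3K4me3 levels of 0.50 and 0.91 and H3K79me3 levels of -1.12 and -0.33; its H3K79me3 change of 0.38 was 0.02 in the authors' deposited table after the same matching. HMLALPHA1 RNA was listed at 0 in BY4741 and stood at 2.38 FPKM in sir3, 3.49 in arp5, 5.49 in ies6 and 2.775 in the double deletion. HMLALPHA2 RNA was listed at 0 in BY4741 and stood at 2.21 in sir3, 1.19 in arp5, 1.69 in ies6 and 0 in the double deletion. Both genes were listed at 0 in ies2, CY337 and ino80. All of these are low values. The reference genome holds the same alpha sequence at the mating type locus, and BY4741 carries the a type there, so reads of HML could be placed at either copy. MATALPHA2, at that locus, was listed at 101.9 FPKM in BY4741, 216.5 in sir3 and 58.42 in arp5. MFA1, the gene of the a mating pheromone, which cells holding both a and alpha information do not express, was singled out after its values were seen. MFA1 RNA was 50360 FPKM in BY4741, 85.7 in sir3, 1455 in arp5, 1472 in ies6 and 69740 in ies2. In the double deletion MFA1 stood at 56.04, and it was 47100 in CY337 and 51730 in ino80. The 2 genes next to HML towards the end, YCL068C and the putative vacuolar transporter VBA3, had H3K4me3 changes of 0.73 and 0.75. The other silent cassette, HMR, lies 22.3 kb from III right at HMRA1, outside the members.

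At VII left, whose H3K79me3 recovered at 12.7 kb in BY4741 and 12.5 kb in arp5, COS12 was low in H3K79me3 in both strains, at -1.499 and -1.19, and its H3K4me3 level was -1.499 and -3.28. COS12 RNA was 3.59 FPKM in BY4741, 53.6 in sir3, 2.02 in arp5 and 40.7 in the double deletion. At VI right the outermost gene, YFR057W, which is a standard reporter of Sir silencing, had H3K79me3 levels of -1.94 and -1.25, with a level-matched change of 0.03. YFR057W RNA was listed at 0 in BY4741 and stood at 29.6 FPKM in sir3, 1.26 in arp5 and 10.4 in the double deletion. IRC7, at the recovery point of that end, had H3K79me3 levels of 0.21 and 0.12, and RNA of 58.8 FPKM in BY4741 and 125.9 in arp5.

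The remaining families had smaller median changes. The 19 PAU genes within 20 kb, cell wall mannoproteins of anaerobic growth, were low in both marks in BY4741. Their medians were -1.59 in H3K79me3 and -3.78 in H3K4me3, and their median level-matched changes 0.13 and -0.13. The H3K4me3 changes ran from -2.58 to 1.26, with 4 genes lower and 4 higher past 0.5 log2, against 9.39% and 8% of all genes. Several PAU genes have fewer than 10 windows, such as PAU9 with 3. The 8 YRF1 genes had median H3K79me3 levels of 0.31 in BY4741 and 0.10 in arp5, and H3K4me3 levels of -1.56 and -1.85, with level-matched changes of -0.15 and 0.05. In H3K79me3 change 8 of 8 were below 0, where 2224 of all 5174 genes were, and 0 were past 0.5 log2 lower; as near-identical copies they are not separate measurements. The 3 sugar transporter genes HXT15, HXT16 and HXT17 had a median H3K79me3 change of -0.11. Of the flocculin list 0 of 5 lay within 20 kb.

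RNA was set beside the BY4741 marks. Among 33 of the 48 genes with H3K79me3 under the interior lower quartile of -1.04 that reached 5 FPKM in either strain, 7 were higher past 2-fold in sir3, against 1.96% of all genes. The number was 5 of 50 for genes between that quartile and the median and 1 of 55 for genes at or above the median. In arp5 12 of 31 genes of the lowest class were higher past 2-fold, 6 of 56 of the middle class and 3 of 54 of the highest, against 6.45% of all genes; arp5 and sir3 share the BY4741 control. Lower past 2-fold were 6 of 138 genes in sir3, against 2.16% of all genes, and 11 of 141 in arp5, against 4%. From the lowest class to the highest, the lower genes were 4 of 33, 1 of 50 and 1 of 55 in sir3. In arp5 they were 3 of 31, 8 of 56 and 0 of 54. Over all genes of a class the median BY4741 value was 4.73 FPKM in the lowest, 9.8 in the middle and 9.87 in the highest. Ratios of the lowest class thus rest on lower values. The median RNA ratio of genes of chromosomes XI and XII in arp5 was 0.37 and 0.38, and that of chromosome III was -0.28, where the other 13 lay between -0.13 and -0.004; their part in these counts was not tested.

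Across genes, the change of a mark was set beside the change of RNA in arp5. Over 167 genes within 20 kb the Spearman correlation of the level-matched H3K4me3 change with the arp5 RNA ratio was 0.51 (Pearson 0.53), and over 4582 interior genes it was 0.20 (Pearson 0.31). For H3K79me3 the values were 0.30 and 0.13. Both marks' changes were correlated with each other at 0.48 over 171 genes, beside 0.30 over 4603 interior genes. The differences between these values were not tested, and they are descriptions across genes, which are not independent replicates and share libraries and, in the case of the families above, sequence.

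**Figure D5:**
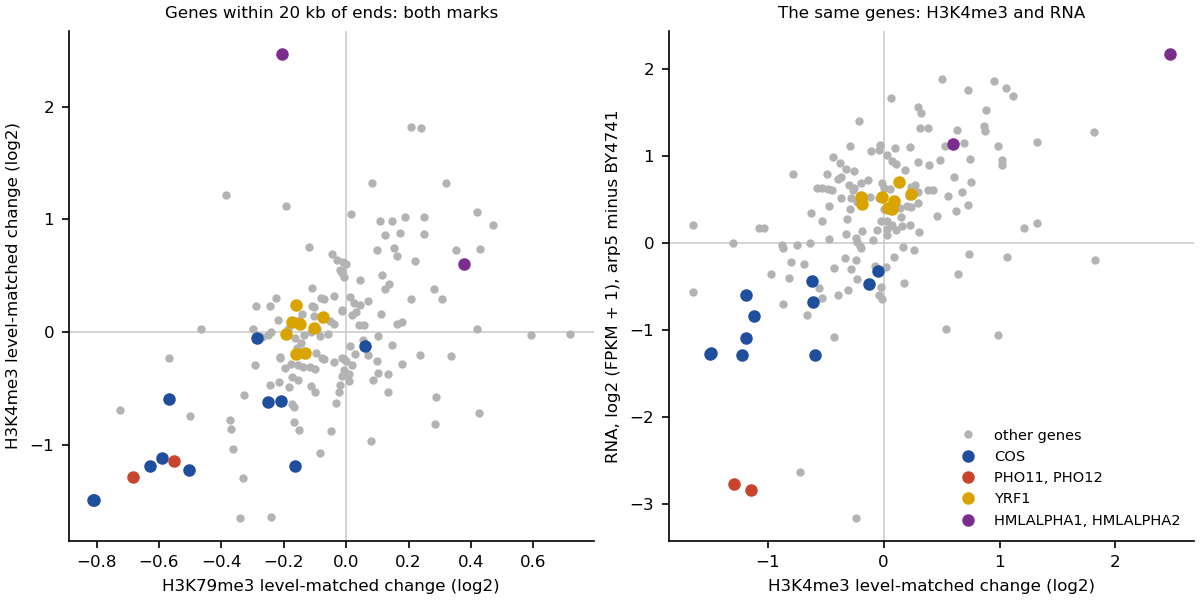
Each point is 1 of the 171 genes within 20 kb of an end. Left, level-matched change of H3K79me3 (x axis) and H3K4me3 (y axis), arp5 minus BY4741 in log2 units; right, H3K4me3 change (x axis) and log2 of FPKM + 1 in arp5 less BY4741 (y axis). Most COS genes and both PHO genes sit low in both panels, YRF1 genes near the middle, and HMLALPHA1 at the top of the left panel.

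RNA of the enzymes and factors that set these marks and build silent chromatin was compared in arp5. Of 29 such genes, including those for the methyltransferases, the Sir proteins and their recruiters, 29 were in the table and 0 were past 2-fold in arp5, against 6.45% of all genes higher and 4% lower, with log2 ratios between -0.59 and 0.64.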

How the data were processed

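The authors' deposited mark tables hold log2 ratios of precipitate over input in 50 bp windows on sacCer3; the submitters' processing notes name Bowtie 0.12.9 as aligner, and scaling, peak caller and threshold were not given in the sources used here. A further deposited table gives, window by window, the log2 ratio of H3K79me3 between the strains, and the authors' lists of significant windows give log2 ratios for listed windows alone. RNA levels were deposited in FPKM, and the same notes name TopHat2 2.0.8, Bowtie and Cuffdiff 2.0.2, in 8 columns, 1 for each genotype, beside labels of 19 RNA libraries; which libraries entered a column was not stated, and the sir3 arp5 genotype has 1. No read totals come with these values, so the depth is not known and counting error could not be estimated.

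Medians were taken with Python 3.11.15, numpy 2.4.6 and pandas 2.3.3. Distance is from the window midpoint to the first or last base. Recovery was sought from 500 bp to 50 kb, with a running median of 1 kb. The level-matched change is the arp5 minus BY4741 difference less the median difference of interior windows in the same of 100 classes of BY4741 level. Recovery was tried on simulated windows with a clean step, and the level-matched change on a scaled copy of BY4741 with added noise. These simulations held no isolated blocks and no noise in BY4741 itself. They therefore do not show how such features of the data act on either measure. Gene positions are from RefSeq R64 for the 5989 of 6664 genes that matched, since 89.6% of the table's own loci equal them and others span merged transcripts; unmatched genes were left out. RNA ratios are log2 of FPKM plus a pseudocount of 1, and genes were counted from 5 FPKM in either strain. Fold changes on this scale understate low genes.

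The named ends are those with the 4 shortest and 4 longest H3K79me3 recovery distances in BY4741 and the 4 highest and 4 lowest H3K79me3 changes, with III left, III right, VI right and VII left; other ends were named after their values were seen. The named genes are the 10 highest and 10 lowest in H3K79me3 change and 6 each in H3K4me3 change, with HML, HMR, YFR057W, COS12 and ARP5 and fixed families. The members, lists and thresholds were chosen with earlier results of these data known. Alternatives changed the zone, the summary, the matching, the running median and the ends included. With 1 library a group there are no tests.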

Additional observations from a re-analysis of the deposited data

How the results depend on the processing

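A log2 value was taken as kept within 0.1, and a distance, count or share within 1.5 times its value; of 412 alternative values 346 were kept and 66 moved, and the level stayed under the interior in the alternatives tried. Leaving out windows of exactly 0 is a weak alternative, since BY4741 H3K79me3 had 0 of them within 20 kb and 107 in all. The level-matched changes, which are small, turned in sign with the matching. Within 30 kb the level less the interior was -1.07 (H3K79me3, BY4741), -0.78 (H3K79me3, arp5), -1.54 (H3K4me3, BY4741) and -1.25 (H3K4me3, arp5); as a mean over windows it was -0.87, -0.60, -1.41 and -1.31; without the 17 early ends, a choice made after seeing the data, -1.57, -1.02, -2.04 and -1.68; within 10 kb H3K4me3 was -1.96 and -1.67. The level-matched H3K4me3 change was -0.24 within 10 kb, 0.081 without classes and 0.056 with classes by the mean of both strains, and the H3K79me3 change was 0.33 without classes.

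Median recovery in arp5 with the threshold at the interior lower quartile was 0.75 kb for H3K79me3 and 1.67 kb for H3K4me3. When the next 2 kb also had to reach the threshold, it was 4.91 kb for arp5 H3K79me3, and 5.38 and 11.6 kb for H3K4me3 in BY4741 and arp5, with 12 ends farther in arp5. Searched from 7 kb inwards, also chosen after seeing the data, it was 13.2 and 12.4 kb for H3K79me3 and 8.99 and 9.06 kb for H3K4me3 in BY4741 and arp5, with 5 ends nearer in arp5 for H3K79me3 and 5 ends where it came before H3K4me3. Without ends with a YRF1 gene H3K79me3 recovered at 3.77 and 6.74 kb, before H3K4me3 at 13 ends. Without the early ends it recovered at 8.81 and 10.5 kb and H3K4me3 at 4.92 and 5.33 kb, with 3 ends nearer in arp5 for H3K4me3 and 3 where H3K79me3 came first. H3K79me3 was nearer in arp5 at 0 ends with 2 kb and with 500 bp medians, and with 500 bp H3K4me3 was nearer at 5 and farther at 3. Leaving out the ends of each chromosome in turn gave 1.10 to 1.95 kb for BY4741 H3K79me3, 1.16 to 2.23 kb for arp5, 1 to 2 ends nearer and 5 to 6 farther in arp5, H3K4me3 nearer at 6 to 8, and H3K79me3 first at 18 to 20. The rise of the median came with V, VIII, XII or XVI out, since it falls in the gap between early and late ends. Over the same leave-outs the levels ran from -1.37 to -1.30, -0.93 to -0.89, -1.87 to -1.76 and -1.52 to -1.40, and the changes from -0.05 to -0.04 and -0.13 to -0.10.

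Past 1.5-fold, windows higher and lower came to 35.9% and 5.16% for H3K79me3 and 27.6% and 23.6% for H3K4me3; matched on level, windows higher past 2-fold came to 0.523% and 8.84%; the authors' deposited table gave 1.15% lower. Listed windows of a log2 ratio of at least 1 made up 3.84% (Arp5), 3.05% (H3K79me3) and 4.79% (H3K4me3) of member windows, against 5.66%, 14.9% and 23.1% of all windows, and the H3K4me3 list held 5.15% within 10 kb and 12.1% within 30 kb. The median arp5 RNA ratio of genes near ends was 0.26 with a pseudocount of 5, against 0.40. Over all named genes 157 of 165 values kept their direction for H3K79me3 and 128 of 132 for H3K4me3; of those of genes past 0.5, 60 of 60 and 100 of 100 did, and 50 and 98 were still past 0.5. No paired analysis was possible because the tables hold 1 library or 1 merged column per group. The depth behind the lowest windows, the placing of repeat reads and the difference between single libraries are the main limits, and their part in the results was not tested.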
